A study of Mus musculus with 2 samples.

Results

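Interferon-stimulated genes are the genes that cells switch on when an interferon binds its receptor. The 47 genes described here, of 27998 genes counted, were taken by symbol from a list of interferon-stimulated genes; all 47 were found in the count tables, and their values played no part in how cells were sorted into types. The cells were live CD45+ CD11b+ leukocytes, CD11b being an integrin chain of myeloid cells, sorted from malignant pleural effusions, the fluid that gathers around the lung when a tumour grows in the pleural cavity. Each mouse had received 150000 LLC tumour cells (Lewis lung carcinoma, a transplantable mouse line) in 100 µl of PBS in that cavity, and the fluid was drawn on day 10. Both droplet libraries belong to this 1 group, called here library 2 and library 1, so no untreated or tumour-free mouse stands beside them. The sources used here do not state strain, age, sex or how many mice each library holds. The p-values below measure how much differences between gates vary between the 2 libraries, after the shift common to a library is taken out. That variation may be technical, and the p-values cannot be read as a spread between mice.

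Type I interferons signal through Ifnar1 and Ifnar2 to the kinases Jak1 and Tyk2, and Stat2 and Irf9 take part in the factor that then binds the interferon-stimulated response element (ISRE) of target promoters. Interferon gamma signals through Ifngr1 and Ifngr2 to Jak1 and Jak2, and its targets carry a different element, the gamma-activated site. Products of the target genes sense foreign nucleic acid, degrade or block viral RNA, keep virus particles out of the cytosol or attack the membranes of intracellular microbes, and myeloid cells are known to carry a basal level of many of them.

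Library 2 held 2908 cell barcodes with 20322996 UMIs (molecules counted per gene and cell) and library 1 held 1141 with 11543829, at medians of 1954.5 and 9894 per barcode and minima of 500 and 1999. Xist without Y-linked RNA was seen in 1298 cells of library 2 and 0 of library 1, and Y-linked RNA without Xist in 109 cells of library 2 and 767 of library 1. Both were seen in 68 cells of library 2. Library and sex thus largely coincide, and they were not separated here. Library 2 also carried 2 antibody tags, BC2 and BC3, that the labels do not explain. Only 4 barcodes were shared. Cells were assigned by marker genes alone, per 10000 UMIs of a cell. C1q cells had at least 20 UMIs of C1qa, C1qb and C1qc, complement genes of macrophages, and were split by Folr2, a folate receptor of tissue macrophages, and Vcan, a proteoglycan gene high in monocytes. Folr2-gated cells numbered 197 in library 2 and 191 in library 1, Vcan-gated cells without Folr2 223 and 101, monocyte-like cells 435 and 423, dendritic-like cells 37 and 136, neutrophil-like cells 1517 and 80, and cells like the resident large macrophages of the pleural cavity (Alox15, Prg4) 22 and 26. The dendritic-like cells were led by Ccr7 and Fscn1 in library 2, and by H2-DMb2 and Klrd1 in library 1. B-like (12 and 26) and T/NK-like cells (49 and 3) were too few to be tested.

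In RefSeq (GRCm38.p6), 39 of the 47 genes have a promoter entry, a window from 250 bases before to 50 after a transcription start. The core letters of the ISRE, 2 copies of GAAA with any 2 bases between them, searched on both strands, occurred in 21 of the 39, or 53.8%, against 3.99% of 27025 genes with an entry. Matches were allowed to overlap. All 6 GTPase genes with an entry held these letters, as did 3 of 5 genes of the IFIT and viperin group, 2 of 4 IFITM genes and 1 of 4 Schlafen genes. The letters TTCNNNGAA of the gamma-activated site occurred in 12 of the 39 (30.8%), against 9.55% of all genes, and among transcription factors in Irf1 alone. The 250 bases before the start are printed for 6 genes on which the results turn, 5′ to 3′ on the strand of the gene, with ISRE letters in capitals. Isg15 and Gbp2 stand for abundant members that were high in library 2, Ifit1 and Rsad2 for genes near 0 in library 1 macrophages, Ifitm2 had the smallest difference between libraries in Folr2-gated cells, and Slfn4, which holds no match in this window, was among the members highest in neutrophil-like cells relative to Folr2-gated cells. They come from chr4:156200819-156201068 (minus strand) for Isg15, chr3:142620413-142620662 (plus) for Gbp2, chr19:34640639-34640888 (plus) for Ifit1, chr12:26456453-26456702 (minus) for Rsad2, chr7:140955962-140956211 (minus) for Ifitm2 and chr11:83174936-83175185 (plus) for Slfn4.
Isg15: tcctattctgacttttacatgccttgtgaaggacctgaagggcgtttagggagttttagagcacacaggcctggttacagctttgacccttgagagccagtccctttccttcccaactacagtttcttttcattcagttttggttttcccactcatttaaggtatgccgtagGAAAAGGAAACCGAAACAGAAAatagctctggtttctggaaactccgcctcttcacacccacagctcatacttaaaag
Gbp2: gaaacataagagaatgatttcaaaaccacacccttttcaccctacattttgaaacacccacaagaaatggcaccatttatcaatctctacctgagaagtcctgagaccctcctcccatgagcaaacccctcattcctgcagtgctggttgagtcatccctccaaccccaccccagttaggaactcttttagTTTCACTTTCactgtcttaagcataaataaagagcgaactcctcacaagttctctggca
Ifit1: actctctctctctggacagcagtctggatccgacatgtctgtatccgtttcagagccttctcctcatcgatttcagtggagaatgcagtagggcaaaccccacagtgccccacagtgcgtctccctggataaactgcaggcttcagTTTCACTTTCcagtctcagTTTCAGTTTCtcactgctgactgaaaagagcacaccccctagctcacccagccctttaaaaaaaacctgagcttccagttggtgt
Rsad2: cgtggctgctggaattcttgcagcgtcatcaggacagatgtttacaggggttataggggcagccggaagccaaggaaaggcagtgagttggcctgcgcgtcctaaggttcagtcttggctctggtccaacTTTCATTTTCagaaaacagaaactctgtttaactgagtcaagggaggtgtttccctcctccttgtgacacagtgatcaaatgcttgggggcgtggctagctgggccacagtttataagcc
Ifitm2: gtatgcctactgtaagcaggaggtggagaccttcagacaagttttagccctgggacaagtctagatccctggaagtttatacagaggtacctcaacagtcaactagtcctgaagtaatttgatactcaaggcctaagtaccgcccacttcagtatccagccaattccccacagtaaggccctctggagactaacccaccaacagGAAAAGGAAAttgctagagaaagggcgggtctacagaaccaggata
Slfn4: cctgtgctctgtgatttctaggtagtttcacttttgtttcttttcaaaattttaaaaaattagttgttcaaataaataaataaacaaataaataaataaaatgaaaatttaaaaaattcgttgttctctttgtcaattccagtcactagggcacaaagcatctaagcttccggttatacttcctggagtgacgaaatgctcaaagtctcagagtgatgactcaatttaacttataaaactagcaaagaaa

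Isg15 holds 3 overlapping matches that form 1 run of capitals, at -78, -72 and -66 from the start, Ifit1 holds 2 separate ones, and Gbp2, Rsad2 and Ifitm2 hold 1 each. A match describes letters in the reference and says nothing of whether a factor was bound in these cells.

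Together the 47 genes took 2.41% of all UMIs of library 2 and 1.2% of library 1. IFITM genes supplied 57.2% of the members' UMIs in library 2 and 77.5% in library 1, so the sum is given with and without them. With all members, the share was 4.42% in library 2 and 2.30% in library 1 in neutrophil-like cells, 2.34% and 2.00% in dendritic-like cells, 2.35% and 1.08% in monocyte-like cells, 2.29% and 1.04% in Vcan-gated cells, 1.15% and 0.526% in resident-like cells, and 2.05% and 1.03% in Folr2-gated cells. Without the IFITM family, the 43 other genes took 1.92% of UMIs in library 2 and 0.376% in library 1 in neutrophil-like cells, and 0.833% and 0.264% in Folr2-gated cells. Library 2 was thus higher in each of these gates, by 5.11-fold in neutrophil-like and 3.16-fold in Folr2-gated cells for the 43 genes. Neutrophil-like cells had the highest share of the 43 genes in both libraries. The 5 other gates ran from 0.603% (resident-like) to 1.04% (monocyte-like) in library 2, and from 0.264% (Folr2-gated) to 0.298% (dendritic-like) in library 1. B-like cells had the lowest shares of the 43 genes of any gate with over 10 cells, 0.314% in library 2 and 0.184% in library 1.

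**Figure D1:**
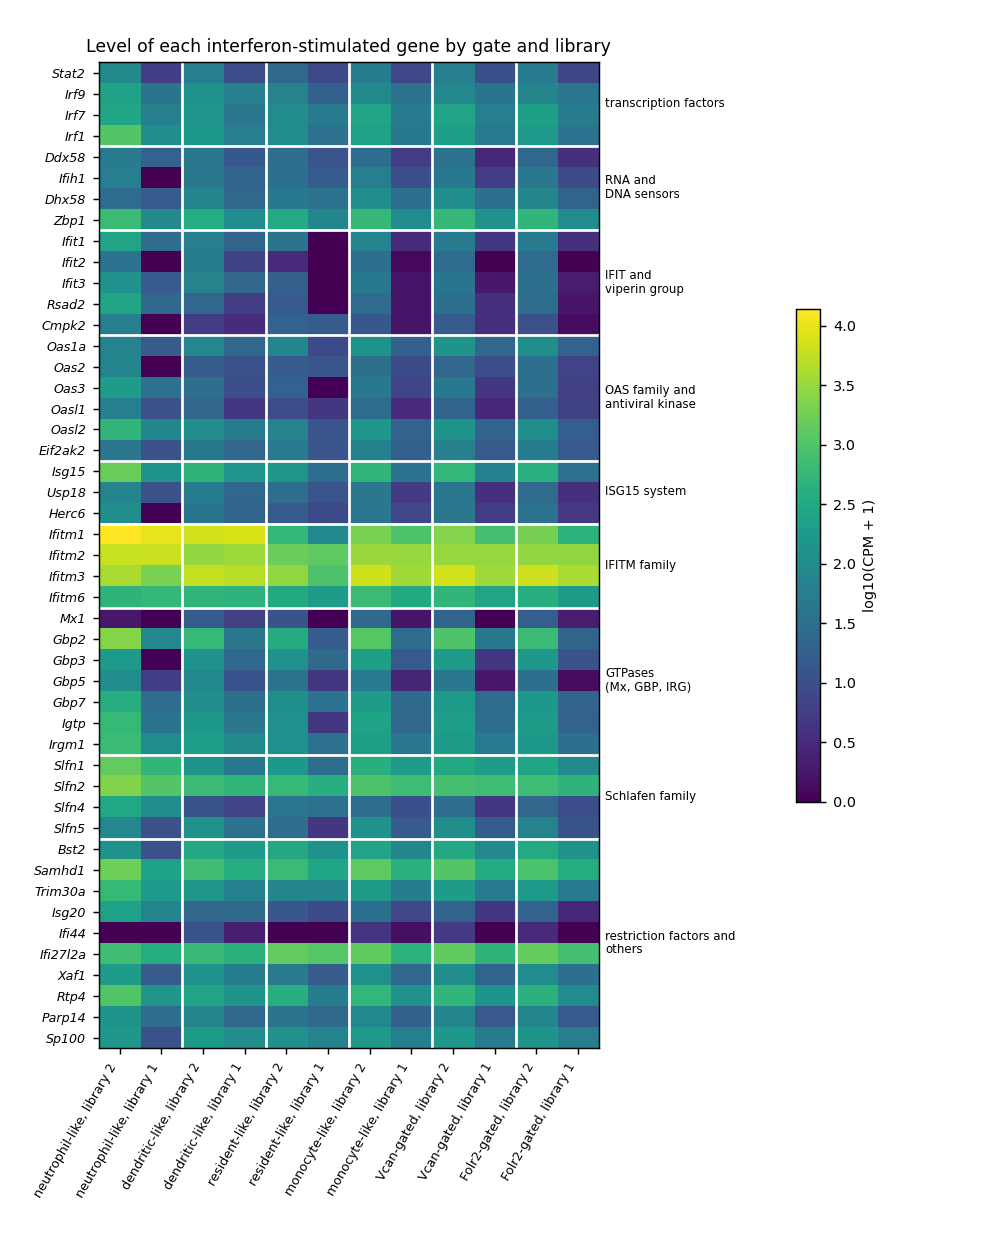
Level of each of the 47 genes as log10(CPM + 1), by gate and library, with genes grouped by role. Columns of library 2 are brighter than those of library 1 for most genes, the Ifitm rows are bright in both, and Ifitm1 is brightest in neutrophil-like cells at 13925 CPM in library 2 and 10199 in library 1.

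The difference between the libraries reached most of the list in 4 of the 6 gates. A ratio of at least 4-fold in favour of library 2 was held by 31 of 47 members in Folr2-gated cells, where 3.61% of 10059 genes with 10 or more UMIs reached it. The counts were 31 of 47 in Vcan-gated cells (3.93% of genes), 31 of 47 in monocyte-like cells (2.83%), 31 of 45 in neutrophil-like cells (4.84%), 7 of 45 in dendritic-like cells (2.3%) and 13 of 38 in resident-like cells (2.9%). These counts add 0.5 UMIs to each value. With genes at 0 in library 1 set at a floor of 3 UMIs there, a choice made after seeing the data, they were 30 in Folr2-gated cells (3.12% of genes), 30 in Vcan-gated (2.48%), 31 in monocyte-like (2.75%), 28 in neutrophil-like (1.78%), 7 in dendritic-like (2.30%) and 12 in resident-like cells (2.31%). The genes no longer at 4-fold in neutrophil-like cells were Ifih1, Ifit2 and Cmpk2. No member was 4-fold lower in library 2 in any of the 6 gates. Over all genes with a value that share ran from 0.744% in Vcan-gated to 1.51% in dendritic-like cells, so 0 of 38 to 47 members is near it. The median log2 ratio of members was 2.41 in Folr2-gated, 2.54 in Vcan-gated, 2.56 in monocyte-like, 2.74 in neutrophil-like, 1.52 in resident-like and 1.47 in dendritic-like cells, against medians between 0.01 and 0.28 over all genes. At the floor the members' medians became 2.36 in Folr2-gated, 2.39 in Vcan-gated and 2.55 in neutrophil-like cells and stayed as given in the other gates. With 1 library on each side there is no replicate check and no test; the values describe these libraries, which differ in depth, in sex and possibly in handling, and the part of each was not tested. Limiting library 2 to cells with at least 1999 UMIs, the minimum of library 1, left 0.833% in 196 Folr2-gated cells and 1.55% in 248 neutrophil-like cells for the 43 genes.

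**Figure D2:**
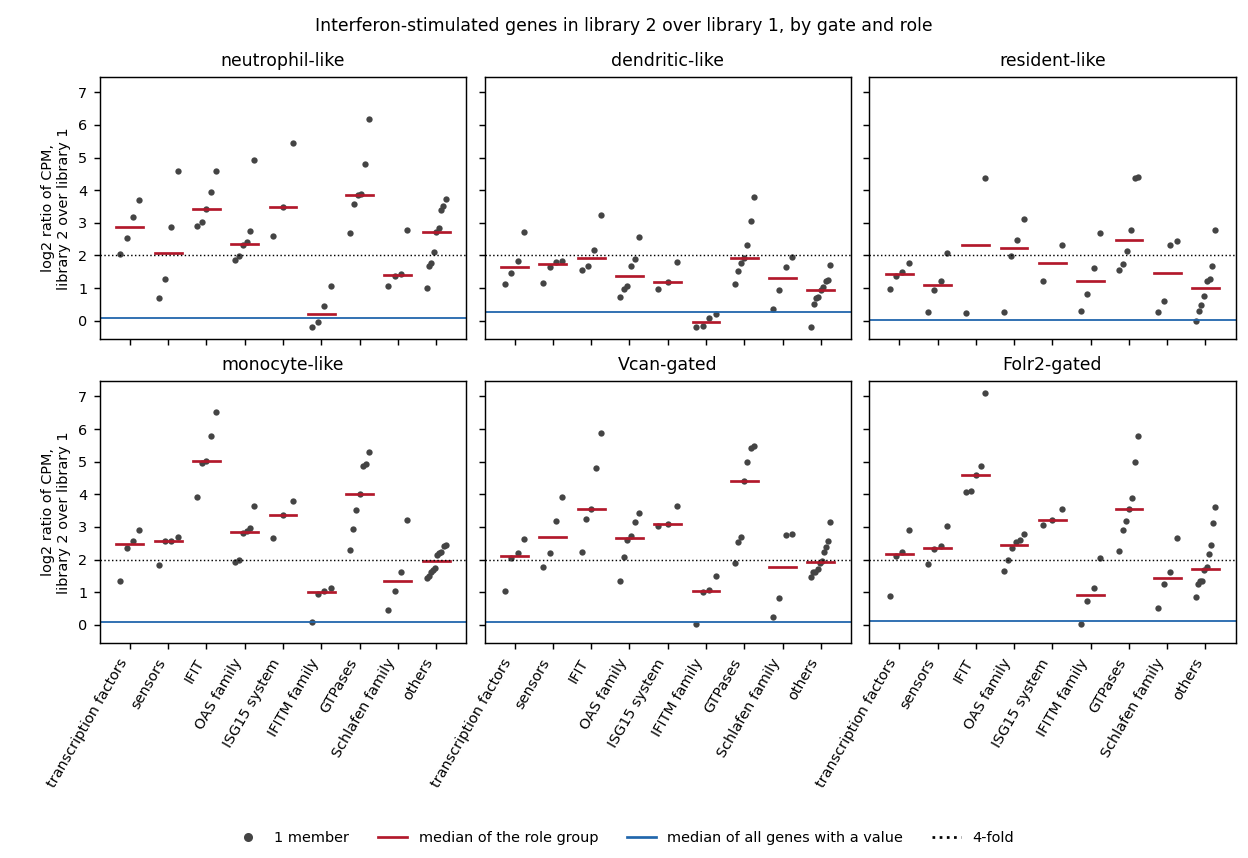
Log2 ratio of CPM, library 2 over library 1, of each member (points) in 6 gates, by role group, with the group median (red), the median of all genes (blue) and the 4-fold line (dotted). In Folr2-gated cells the IFIT and GTPase groups lie highest, with medians of 4.60 and 3.56, and the IFITM family lowest, at 0.92; the order of groups differs between gates.

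Levels are given below as CPM, UMIs per 1e+06 UMIs of a gate in a library; the 3′ counting gives 1 UMI per captured molecule whatever the length of the gene. Among transcription factors of the response, Irf1 and Irf7 carried the most UMIs. Irf1, a factor induced by interferon gamma, stood at 1066 CPM in library 2 and 116 in library 1 in neutrophil-like cells, and at 175 and 36.9 in Folr2-gated cells. Irf7, which drives type I interferon genes, stood at 267 and 62.9 in neutrophil-like and at 230 and 53.5 in Folr2-gated cells. In Folr2-gated cells 3 of the 4 factors were at least 4-fold higher in library 2; Irf9, the DNA-binding partner of Stat2, was the exception at 75.1 and 40.9 CPM. Of the sensors, Zbp1, which binds nucleic acid in its left-handed form, was the most abundant, with 523 CPM in library 2 and 98.3 in library 1 in Folr2-gated cells. Dhx58, a relative of the RNA sensor RIG-I, had 77.0 and 20.8 CPM there. RIG-I itself (Ddx58) had 23.8 and 2.75 CPM, and Ifih1, the long-RNA sensor MDA5, had 42.2 and 8.25.

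The IFIT and viperin group had the highest median log2 ratio of the role groups in Folr2-gated cells, 4.60, or 4.51 with Ifit2 at the floor. Ifit1, whose product binds the ends of foreign RNA, had 50.2 CPM in library 2 and 2.75 in library 1 in Folr2-gated cells. Rsad2, which encodes the antiviral enzyme viperin, had 28.8 and 0.786 there. Ifit2 had 118 UMIs in library 2 and 0 in library 1 in those cells, at least 22.7-fold higher against a floor of 3 UMIs in library 1. All 5 genes were at least 4-fold higher in library 2 in Folr2-gated, Vcan-gated and monocyte-like cells. In neutrophil-like cells 3 of the 5 were; Ifit2 and Cmpk2, with 0 UMIs in library 1, were at least 2.55-fold and 3.97-fold higher against the floor. In dendritic-like cells 4 of the 5 had 10 or more UMIs and 2 of them reached 4-fold; Ifit1 stood at 59.9 and 20.5 CPM there, so that library 1 was higher in these cells than in Folr2-gated cells.

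Genes of the OAS family, which make oligoadenylates that activate an RNA-degrading enzyme, and Eif2ak2, the antiviral kinase PKR, had a median log2 ratio of 2.45 in Folr2-gated cells. Oasl2 had 116 CPM in library 2 and 16.5 in library 1, and Oas1a 114 and 19.3. In the ISG15 system all 3 genes passed 4-fold in Folr2-gated cells. Isg15, a ubiquitin-like protein that is attached to other proteins, had 425 CPM in library 2 and 35.8 in library 1 in these cells. In neutrophil-like cells it had 1591 and 140 CPM. Herc6, the ligase that attaches it in the mouse, had 34.5 and 3.93 CPM in Folr2-gated cells, and Usp18, the protease that removes it and restrains the receptor, 27.5 and 2.75.

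Most of the GTPases attack the vacuoles of intracellular microbes. Gbp2 had 669 CPM in library 2 and 20.8 in library 1 in Folr2-gated cells, 1122 and 28.6 in monocyte-like cells, and 2375 and 82.3 in neutrophil-like cells. Igtp, of the immunity-related GTPases, had 178 and 19.3 in Folr2-gated and 592 and 38.7 in neutrophil-like cells. All 7 genes of the group were at least 4-fold higher in library 2 in Folr2-gated and monocyte-like cells.

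IFITM proteins sit in membranes and hinder the fusion of viruses with the cell. Ifitm2 had 2948 CPM in library 2 and 2887 in library 1 in Folr2-gated cells, and 6337 and 6474 in neutrophil-like cells, so the libraries differed little. Ifitm3 had 6827 and 4152 CPM in Folr2-gated cells. Ifitm1 had 1956 and 470 there, the only IFITM gene that reached 4-fold in this gate. The log2 ratios of the family ran from 0.03 to 2.06 in Folr2-gated cells, and those of the GTPases from 2.27 to 5.79. In dendritic-like cells the IFITM median was -0.05.

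Schlafen genes, which in several cases restrain growth or viral translation, ranged widely. Slfn2 had 711 CPM in library 2 and 492 in library 1 in Folr2-gated cells, Slfn1 277 and 90.4, Slfn5 70.1 and 11, and Slfn4 22.0 and 9.04. Only Slfn5 reached 4-fold in this gate. Of the 10 remaining genes, Ifi27l2a, which encodes a small membrane protein, had 1451 and 795 CPM in Folr2-gated cells, and Samhd1, an enzyme that depletes the building blocks of DNA, 918 and 362. Ifi44 was the rarest member, with 50 UMIs in library 2 and 4 in library 1 over all kept cells. Bst2, the tether that holds budding viruses at the surface, reached 3910 CPM in the 2 plasmacytoid dendritic-like cells of library 2, a value from 44 UMIs.

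At equal depth, the gap between libraries was spread over most cells of a gate. Each cell was thinned to 1000 UMIs, which kept all 197 Folr2-gated cells but 1169 of the 1517 neutrophil-like cells of library 2. Folr2-gated cells then held a median of 8 UMIs of the 43 genes in library 2 (middle 50% of cells 6 to 10) and 2 in library 1 (1 to 3). Neutrophil-like cells held 18 (12 to 26) and 3 (2 to 5), and monocyte-like cells 9 (6 to 14) and 2 (1 to 4). Cells with none of these UMIs made up 0.508% of Folr2-gated cells in library 2 and 14.1% in library 1. B-like cells, which held 3 and 1.5 at the median, give a level in cells of another lineage, where RNA set free from other cells can also contribute.

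**Figure D3:**
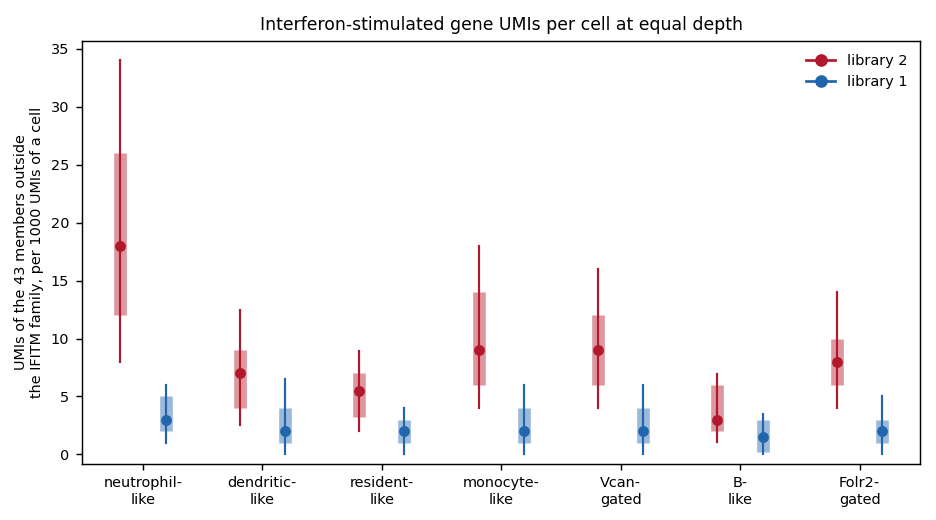
UMIs of the 43 members outside the IFITM family per cell after thinning to 1000 UMIs, by gate, with library 2 in red left of library 1 in blue; points are medians, thick bars the middle 50% of cells and thin lines the 10th to 90th percentiles. In neutrophil-like, monocyte-like, Vcan-gated and Folr2-gated cells the lower end of the library 2 line lies above the library 1 median. Dendritic-like cells show this by a small margin, at 2.5 against 2.

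In library 2, thinned Folr2-gated cells with an Isg15 UMI held 9.41 UMIs of the 42 other genes on average, and those without 7.30, a ratio of 1.29. The ratio was 1.51 in monocyte-like cells (12.8 and 8.45) and 1.59 in neutrophil-like cells (21.4 and 13.4), but 1.09 in Vcan-gated and 1.19 in dendritic-like cells. In library 1 it was 1.49 in Folr2-gated, 1.73 in monocyte-like, 1.66 in dendritic-like and 2.10 in neutrophil-like cells, where 7, 16, 8 and 8 cells held an Isg15 UMI. C1q cells were also split at 10 UMIs of Plac8 and Ms4a4c per 10000 UMIs of a cell, a pair chosen with earlier results of these data known. Those results had tied the pair to interferon genes. A higher share above the limit was therefore to be expected, and the split is no test. In cells at or above this limit the 43 genes took 0.908% of UMIs in library 2 and 0.398% in library 1. Those with fewer had 0.450% and 0.225%. These sets held 414 and 74 cells at or above the limit, and 26 and 227 below it, and library 2 was the higher in both.

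Of the 10 interferon genes listed, 8 were not detected. Ifna1, Ifna2, Ifna4, Ifna5, Ifnb1, Ifne, Ifnl2 and Ifnl3 had 0 UMIs in all kept cells, which allows a share of cells with a UMI of up to 0.105% in library 2 and 0.269% in library 1 for each. Ifng had 98 UMIs in library 2, of which 74 lay in the 49 T/NK-like cells, and 0 in library 1, which held 3 such cells. Receptor chains differed little between libraries in Folr2-gated cells, with Ifnar1 at 53.1 CPM in library 2 and 46.8 in library 1, Ifnar2 at 112 and 104, and Ifngr1 at 240 and 229.

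Downstream of the receptors the values parted. Socs1, an inhibitor of the Jak kinases that the pathway induces, had 28.1 CPM in library 2 and 1.57 in library 1 in Folr2-gated cells, the second from 4 UMIs. Cxcl10, a chemokine for T cells, had 45.6 and 1.57, and Cd274, the checkpoint ligand PD-L1, had 50.2 and 3.93. Cxcl9, a chemokine that depends on interferon gamma, had 56 UMIs in library 2 and 0 in library 1 in these cells. These targets were high in library 2 while the receptor genes were near level.

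The gates were then compared with Folr2-gated cells in 1 edgeR quasi-likelihood fit of UMIs summed per gate and library (n = 2 libraries, with the library as a block, since all gates come from the same libraries), and p-values were adjusted by the Benjamini-Hochberg method over 9483 genes. The 5 comparisons share the Folr2-gated cells. Ifi44 fell below the filter on low counts, and the other 46 members were tested. Log2 fold changes ± SE are on the TMM scale, which corrects for a few genes taking much of a library.

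In neutrophil-like cells, interferon-stimulated genes as a set of 46 stood mostly above Folr2-gated cells: 37 rose and 3 fell, where 27.3% of genes were higher and 29.5% lower (56.8% called in all). The median log2 fold change of the members was 1.92, against -0.19 over all genes. On this scale all 4 transcription factors, all 5 IFIT and viperin genes, all 3 ISG15 system genes and all 4 Schlafen genes rose. So did 4 of 6 OAS family genes, 5 of 7 GTPases, 3 of 4 sensors, 3 of 4 IFITM genes and 6 of 9 others. Of the 37, 31 were higher in both libraries when 0.5 UMIs were added to each count. Without this addition some of the 31 were not higher in library 1, Stat2, Irf9, Slfn5, Cmpk2 and Ifit2 among them. Stat2 had 4.84 CPM in library 1 neutrophil-like cells against 6.29 in Folr2-gated cells. By CPM and with counting error left aside, 8 of the 37 had both neutrophil-like values above both Folr2-gated values. Neither count was made over all genes, so whether members exceed other genes in these respects is not known.

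Isg20, an exonuclease that degrades RNA, had 238 CPM in library 2 and 72.6 in library 1 in neutrophil-like cells, against 18.8 and 1.97 in Folr2-gated cells (log2 fold change 4.51 ± 0.39, edgeR adjusted p = 5.48e-08). Slfn4 had 308 and 111 CPM, against 22.0 and 9.04 (4.35 ± 0.27, edgeR adjusted p = 1.47e-09). Ifitm1 had 13925 and 10199 CPM, against 1956 and 470 (4.12 ± 0.47, edgeR adjusted p = 1.48e-06). In these 3 genes each neutrophil-like value exceeded each Folr2-gated one. Rsad2 had 285 and 24.2 CPM, against 28.8 and 0.786 (4.06 ± 0.32, edgeR adjusted p = 1.67e-08). For Rsad2 the lower neutrophil-like library lay below the higher Folr2-gated one, so the difference shows within each library but the groups overlap.

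Oas3 had 194 CPM in library 2 and 33.9 in library 1 in neutrophil-like cells, against 32.2 and 5.11 in Folr2-gated cells (3.24 ± 0.27), and Slfn1 had 1385 and 537, against 277 and 90.4 (2.99 ± 0.26). Both genes were apart in all values, but for Oas3 only within counting error. Its library 1 neutrophil-like value came from 7 UMIs, with 95% limits of 13.6 and 69.8 CPM that enclose the 32.2 CPM. Cmpk2, a nucleotide kinase beside Rsad2 in the genome, had 57.7 CPM and 0 UMIs, against 9.76 and 0.393 (3.27 ± 0.42). Its library 1 value of 0 has an upper limit of 14.5 CPM, so that library gives no direction. Oas2 (1.91 ± 0.33), Oasl1 (2.20 ± 0.32), Parp14 (1.52 ± 0.26), Rtp4 (1.63 ± 0.34) and Xaf1 (1.31 ± 0.32) were among the other members that rose. In all, 5 members that rose had 0 UMIs in library 1 neutrophil-like cells: Cmpk2, Herc6, Ifih1, Ifit2 and Oas2. Library 1 gives none of them a direction, and Oasl1 had 2 UMIs there. Ifit1 rose by 3.12 ± 0.43 and Irf1 by 2.97 ± 0.31 on the log2 scale; the edgeR adjusted p of Oas3, Slfn1, Cmpk2, Ifit1 and Irf1 ran from 3.19e-08 for Oas3 to 1.02e-05 for Ifit1.

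Of the genes that fell in neutrophil-like cells, Mx1, a GTPase that traps viral nucleocapsids, had 0.842 CPM (2 UMIs) in library 2 and 0 UMIs in library 1, against 16.1 and 1.18 CPM in Folr2-gated cells (-3.52 ± 0.95, edgeR adjusted p = 0.00464). Library 1 alone gives it no direction, since Folr2-gated cells held 3 UMIs there. Bst2 had 127 and 9.68 CPM, against 344 and 134 (-1.03 ± 0.34, edgeR adjusted p = 0.0156). Dhx58 had 27.4 and 14.5, against 77.0 and 20.8 (-0.71 ± 0.28, edgeR adjusted p = 0.0364). Ifitm3 did not pass, at 4176 and 2013 CPM against 6827 and 4152 (-0.34 ± 0.28, edgeR adjusted p = 0.305), nor did Ifi27l2a, Oas1a, Eif2ak2, Gbp3 and Sp100.

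The neutrophil-like counts depend on scaling, on the library block and on cells of 1 tag. Genes of the neutrophil marker list, S100a8 and S100a9 among them, made up 142653 CPM in library 2 and 212414 in library 1 in neutrophil-like cells, against 1066 and 1228 in Folr2-gated cells. Scaled by library totals without TMM factors, 31 members rose and 6 fell (Ifi27l2a, Ifitm3 and Oas1a with the 3 above), where 17.5% of genes rose and 47.1% fell and the median of all genes moved to -0.82. The 6 genes that no longer rose were Ifih1, Ifit2, Irf7, Samhd1, Slfn5 and Zbp1. Without the library block 11 members rose and 0 fell. Of the library 2 neutrophil-like cells, 1484 were on the BC3 side and 33 on the BC2 side, and the Folr2-gated cells were on the BC2 side in 196 of 197. The 43 genes took 1.98% of UMIs in the BC3 and 1.17% in the BC2 neutrophil-like cells, and with the BC2 side alone 10 members rose and 0 fell; how far the tag bears on the result was not tested. Those 10 were Gbp2, Ifitm1, Ifitm6, Irf1, Irgm1, Isg20, Slfn1, Slfn2, Slfn4 and Trim30a. The share of all genes called was not counted without the block or on the BC2 side. Whether the lower counts concern the members or all genes alike is thus not known.

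**Figure D4:**
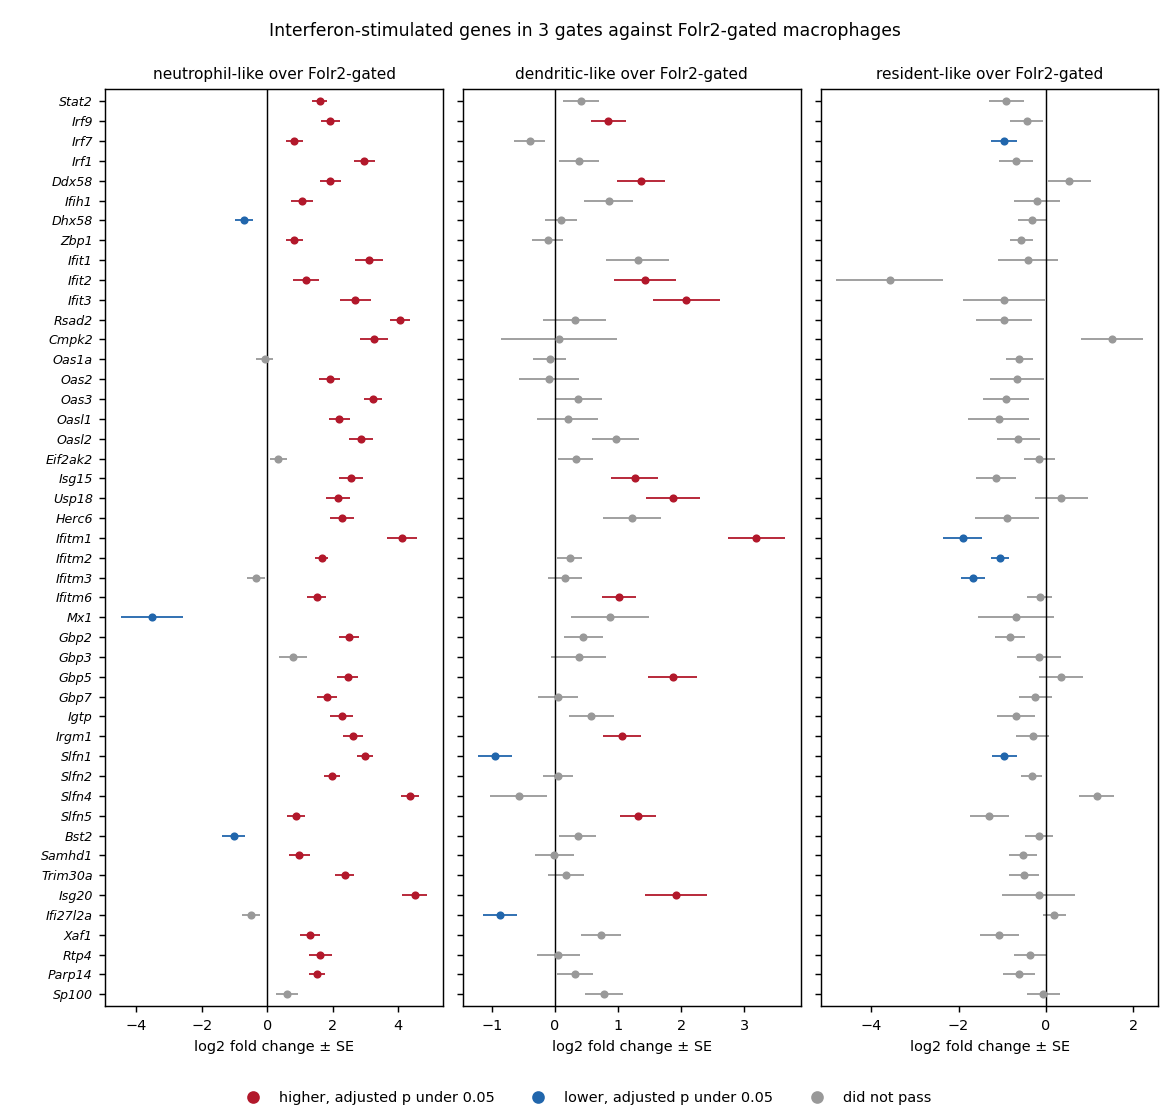
Log2 fold change ± SE (edgeR, n = 2 libraries) of 46 members in neutrophil-like, dendritic-like and resident-like cells, each over Folr2-gated cells, coloured by call at an adjusted p of 0.05. Members passed in 40, 14 and 5 cases: 37 higher and 3 lower, 12 higher and 2 lower, and 0 higher and 5 lower.

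In dendritic-like cells 12 members rose and 2 fell, where 11.9% of genes were higher and 10.1% lower (22% in all). The members' median log2 fold change was 0.38, against -0.02 for all genes. Ifitm1 led, with 7122 CPM in library 2 and 7996 in library 1 in dendritic-like cells, against 1956 and 470 in Folr2-gated cells (3.19 ± 0.46, edgeR adjusted p = 6.22e-05). Ifit3 had 71.0 and 22.3 CPM, against 33.1 and 1.18 (2.08 ± 0.54, edgeR adjusted p = 0.00919). Isg20 had 22.2 and 26.5, against 18.8 and 1.97 (1.92 ± 0.49, edgeR adjusted p = 0.00851). All 3 genes differed more in library 1 than in library 2, and for Ifitm1 and Isg20 the groups did not overlap. The nearest values of Isg20, 22.2 and 18.8 CPM, lay close together, and counting error was not weighed there.

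Isg15 had the same shape, with 495 and 143 CPM in dendritic-like cells, against 425 and 35.8 in Folr2-gated cells (1.26 ± 0.37, edgeR adjusted p = 0.0199). Usp18 rose by 1.87 ± 0.43, Gbp5 by 1.86 ± 0.39, Ifit2 by 1.43 ± 0.49, Ddx58 by 1.37 ± 0.38, Slfn5 by 1.32 ± 0.28 and Irgm1 by 1.06 ± 0.30 on the log2 scale. All 12 were higher in both libraries. The log2 difference, with 0.5 UMIs added to each count, was larger in library 1 for 11 of them. Neither count was made over all genes. Those that fell were Slfn1, with 140 and 44.6 CPM against 277 and 90.4 (-0.95 ± 0.26, edgeR adjusted p = 0.0152), and Ifi27l2a, with 650 and 456 against 1451 and 795 (-0.87 ± 0.27, edgeR adjusted p = 0.0263). Without the library block 0 members passed, and the share of all genes that passed was not counted. The summed share of the 43 genes differed from Folr2-gated cells by -0.26 in library 2 and 0.18 in library 1 on the log2 scale, so the libraries went opposite ways. In library 2, dendritic-like cells of the BC2 side (24 cells) had 0.780% of UMIs from the 43 genes and those of the BC3 side (13 cells) 0.505%.

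In resident-like cells 5 members fell and 0 rose, where 4.18% of genes were lower and 6.79% higher (11% in all). The median log2 fold change of the members was -0.58, against -0.07 for all genes. Ifitm3 had 2920 CPM in library 2 and 957 in library 1 in resident-like cells, against 6827 and 4152 in Folr2-gated cells (-1.67 ± 0.29, edgeR adjusted p = 0.000583). Ifitm1 had 564 and 86.0, against 1956 and 470 (-1.91 ± 0.45, edgeR adjusted p = 0.00881). Ifitm2 had 1609 and 1308, against 2948 and 2887 (-1.05 ± 0.20, edgeR adjusted p = 0.00182). For Ifitm3 and Ifitm2 both resident-like values lay below both Folr2-gated values, and for Ifitm1 the groups overlapped. Irf7 (-0.97 ± 0.30, edgeR adjusted p = 0.0459) and Slfn1 (-0.95 ± 0.29, edgeR adjusted p = 0.0437) were close to the threshold and did not pass with DESeq2 or with RLE scaling. Without the library block Ifitm2 was the only member that passed, and the share of all genes was not counted. These gates held 22 and 26 cells, and no RNA of Ifit1, Ifit2, Ifit3 or Rsad2 was counted in library 1, where 0 UMIs allow up to 11.2 CPM.

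No member passed in the remaining comparisons. In Vcan-gated over Folr2-gated cells 0 of 46 members passed with edgeR, where 0.158% of genes did (0.0316% higher and 0.127% lower). With DESeq2 0 members passed, where 0.0527% of genes were higher and 0.0949% lower. With edgeR 4 members had an unadjusted p under 0.05. Isg15 had 545 and 65.8 CPM in Vcan-gated cells, against 425 and 35.8. The median log2 fold change of members was 0.26, against 0.004 over all genes, with 40 of 46 members above 0. In monocyte-like over Folr2-gated cells 0 of 46 passed with edgeR, where 1.28% of genes did (0.559% higher and 0.717% lower). With DESeq2 0 members passed, where 0.295% of genes were higher and 0.359% lower. With edgeR 8 members had an unadjusted p under 0.05. Gbp2 had 1122 and 28.6 CPM in monocyte-like cells, against 669 and 20.8, and Slfn1, with the lowest adjusted p (edgeR, 0.102), 403 and 196, against 277 and 90.4. The median was 0.34, against 0.008 over all genes, with 41 of 46 members above 0. In both comparisons 0 of 46 is near the share of all genes that passed. How many of all genes had an unadjusted p under 0.05, or lay above 0, was not counted.

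Of 48 other genes of the interferon pathway, 34 were tested. In neutrophil-like cells 16 were higher and 8 lower than in Folr2-gated cells, where 27.3% of all genes were higher and 29.5% lower; scaled by library totals without TMM factors, 9 were higher and 10 lower. Socs1 had 261 and 14.5 CPM, against 28.1 and 1.57 (3.91 ± 0.39, edgeR adjusted p = 2.93e-07), and Nos2, the inducible nitric oxide synthase, had 10.9 and 67.7, against 0.908 and 0 UMIs (5.72 ± 0.83, edgeR adjusted p = 3.3e-05), from 40 UMIs against 4. Cxcl9 was lower, with 0.421 CPM in library 2 and 0 UMIs in library 1 against 12.7 CPM and 0 UMIs, so that library 1 gives no direction (edgeR adjusted p = 0.00735). In dendritic-like cells 8 were higher and 2 lower (11.9% and 10.1% of all genes), or 8 and 4 with library totals, among them Jak2 (2.03 ± 0.25, edgeR adjusted p = 1.31e-05), with 93.2 and 45.2 CPM against 27.9 and 9.43, and Tlr7, with 0 UMIs and 0.603 CPM against 13.2 and 18.9 CPM (edgeR adjusted p = 7.48e-05). Ciita was also higher there, but it is one of the genes that define that gate. In resident-like cells 2 were higher and 8 lower (6.79% and 4.18% of all genes). Among them were Cxcl10 (-2.83 ± 0.81), Irf8 (-2.10 ± 0.46) and Irf5 (-1.75 ± 0.22), which had edgeR adjusted p-values of 0.03, 0.00517 and 3.25e-05. Cxcl10 had 6.29 CPM in library 2 and 0 UMIs in library 1 (up to 11.2 CPM) in resident-like cells, against 45.6 and 1.57 CPM, so library 1 gives no direction. None passed in Vcan-gated or monocyte-like cells.

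Some members lie beside near copies of themselves, whose reads counting to the 3′ end may divide between them. Over all kept cells Trim30a had 5267 UMIs beside 1975 of Trim30d and 1891 of Trim30b, Irgm1 5459 beside 1122 of Irgm2, Oas1a 2450 beside 442 of Oas1g, and Ifit1 1755 beside 137 of Ifit1bl1. Values of these members are uncertain to that extent. In GENCODE vM21 on GRCm38 the Ifit genes lie side by side on chromosome 19 (Ifit2 from 34550694 to 34576419, Ifit3 from 34583531 to 34588731 and Ifit1 from 34640871 to 34650009, plus strand), and Gbp5, Gbp7, Gbp3 and Gbp2 lie on chromosome 3 between 142493978 and 142638008 on the plus strand. Ifitm2, Ifitm1, Ifitm3 and Ifitm6 lie on chromosome 7 between 140954837 and 141017924. Isg15 lies on chromosome 4 from 156199424 to 156200818 on the minus strand, and Rsad2 and Cmpk2 on chromosome 12 from 26442746 to 26456452 (minus) and from 26469204 to 26479837 (plus).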

How the data were processed

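The libraries were made with a 10x 3′ kit and processed with Cell Ranger 3.0.1 against mm10, per the submitters' processing notes. The values are UMI counts per gene and cell as the authors deposited them, with no normalisation. Cells with at least 300 genes and at most 10% mitochondrial UMIs were kept, 2847 in library 2 and 1116 in library 1. Of these, 47 and 9 met several gates and were left out as mixed, and 286 and 112 met none. Gates used UMIs per 10000 of a cell: at least 200 of neutrophil markers, 20 of C1q genes with 3 UMIs, 20 of monocyte markers with C1q below 5, 5 of dendritic and 20 of resident macrophage markers, with 1 UMI of Folr2, or of Vcan without Folr2. Doublets were treated by the mixed class, and by leaving out the highest Scrublet scores (scanpy 1.11.5) as an alternative. Counts summed per gate and library were tested with edgeR 4.0.16 (R 4.3.3) using TMM factors, a filter on low counts and a library block, with 5 residual degrees of freedom over 6 gates, and Benjamini-Hochberg adjustment at 0.05. The pairing comes from the design, since each library supplies every gate. The code was tested on simulated data. Ratios of the libraries used genes with at least 10 UMIs and 0.5 added UMIs, and were repeated with 0 counts of library 1 at a floor of 3 UMIs; such limits cover counting error only. The members, the lists, the gates and the tests were chosen with earlier results of these data known. Named with values were the 2 members with the most UMIs in each role group, up to 10 members with the largest change past the threshold in each comparison and the 3 such pathway genes; other genes named were chosen after their values were seen. Alternatives were DESeq2 1.42.0, other scaling, filters, gate limits, thinning, 1 tag side, no block and each library left out.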

Additional observations from a re-analysis of the deposited data

How the results depend on the processing

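Over the alternatives, 95 values were labelled unchanged, by a rule that did not look at direction. The rule was a member count within a set ratio of the main count, or a summed share within the SD of both libraries. That SD was 0.53 in log2 for all 47 members in dendritic-like cells, so wide shifts also passed as unchanged. Member counts were smaller in 8 cases and larger in 2, and summed shares moved beyond the SD in 3. Counts of members that passed were 4 in monocyte-like cells with no filter on low counts, and 10 in neutrophil-like gates when library 2 kept its BC2 cells alone. In resident-like cells 3 passed with DESeq2, with RLE factors, with a limit of 2 UMIs of Folr2 and Vcan and without the highest doublet scores, and 11 with no filter. Without the library block, which the shared libraries justify, 11 passed in neutrophil-like, 1 in resident-like and 0 in dendritic-like cells. Shares of all genes that passed were counted for the main fit, DESeq2, RLE factors and library totals alone. The summed share of all 47 members, in log2, was 1.13 in neutrophil-like cells, 1.10 with the C1q limit doubled and 0.76 on the BC2 side, and -0.90 in resident-like cells, or -1.16 when thinned. With 1 library left out, it ran from 0.01 to 0.17 in Vcan-gated, 0.06 to 0.20 in monocyte-like, 0.20 to 0.95 in dendritic-like, 1.11 to 1.16 in neutrophil-like and -0.97 to -0.84 in resident-like cells. For the 43 genes without IFITM, library 2 and library 1 gave 1.21 and 0.51 in neutrophil-like, -0.26 and 0.18 in dendritic-like and -0.47 and 0.04 in resident-like cells. Such fits leave no residual degrees of freedom and give no test. Mx1 in neutrophil-like cells was -3.95 without library 1; the fitted 0.81 in library 1 alone rests on 0 UMIs against 3 and gives no direction. The causes of the other changes were not tested. Depth limits the 80 neutrophil-like cells of library 1 to genes above about 14.5 CPM.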
